A study of Canis lupus familiaris with 29 samples.

Results

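Antigen presentation genes build, load and control the receptors that show protein fragments to T cells. The 10 genes taken by name were B2M, TAP1, TAP2, TAPBP, NLRC5, PSMB8, PSMB9, CIITA, CD74 and DLA-DRA. Of these, 8 were found by name among the 30951 genes of the exon count table, whereas TAP2 and PSMB8 had no gene of that name. The 8 genes found passed the low-count filter in every comparison.

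MHC class I molecules stand on nearly all nucleated cells and carry peptides that the proteasome cuts in the cytosol. MHC class II molecules are carried mainly by macrophages, dendritic cells and B cells and hold peptides of engulfed proteins. Interferon gamma raises the transcription of both, through NLRC5 for class I and CIITA for class II, and macrophages reside in the normal adrenal gland.

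The study sequenced RNA of dog tissue from 19 pheochromocytomas and paragangliomas (PPGLs), which are tumors of chromaffin cells, and from 10 normal adrenal medullas (NAMs). Pet dogs seen at several clinics provided the tumors, some taken during an operation and some after euthanasia. All NAMs were taken after euthanasia, from healthy research dogs. The origin of the dogs therefore cannot be told apart from the tissue. The authors had set aside 2 further tumors as outliers and divided the rest into PPGL group 1 (7 tumors) and PPGL group 2 (12 tumors) by a principal component analysis of the same samples. A p for group 1 against group 2 therefore describes that division and does not test it. The sample labels give neither treatment, age, breed nor genotype. The NAMs held adrenal cortex: the summed level of 11 cortical markers is given with the other cell types further on.

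Between 19258054 and 35918182 reads were counted on genes in each NAM, 18493540 to 31919833 in each group 1 tumor and 18208718 to 24569667 in each group 2 tumor. Levels are TMM-normalized CPM, counts scaled to the size of each library and then between libraries, and 3 counts make 0.0779 to 0.175 CPM in these libraries. No antigen presentation gene came near that limit, since the lowest of their levels was 1.42 CPM, for CIITA in tumor 3 of group 2. In bulk tissue, fewer cells of a type and less RNA per cell cannot be told apart.

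Between PPGLs and NAMs, none of the 8 genes passed the test, while tumors spread to both sides of the NAMs in each. By edgeR's quasi-likelihood (QL) test, 0 of the 8 had an adjusted p below 0.05, whereas 37.5% of the 14766 genes tested did, 22.3% higher and 15.2% lower in PPGLs. None of the 8 had an unadjusted p under 0.05 in that test, and DESeq2 and the Mann-Whitney U-test also called 0 of them. The median log2 fold change (FC) of the 5 class I genes was 0.10 and that of the 3 class II genes 0.03, against 0.13 over all genes tested.

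**Figure D1:**
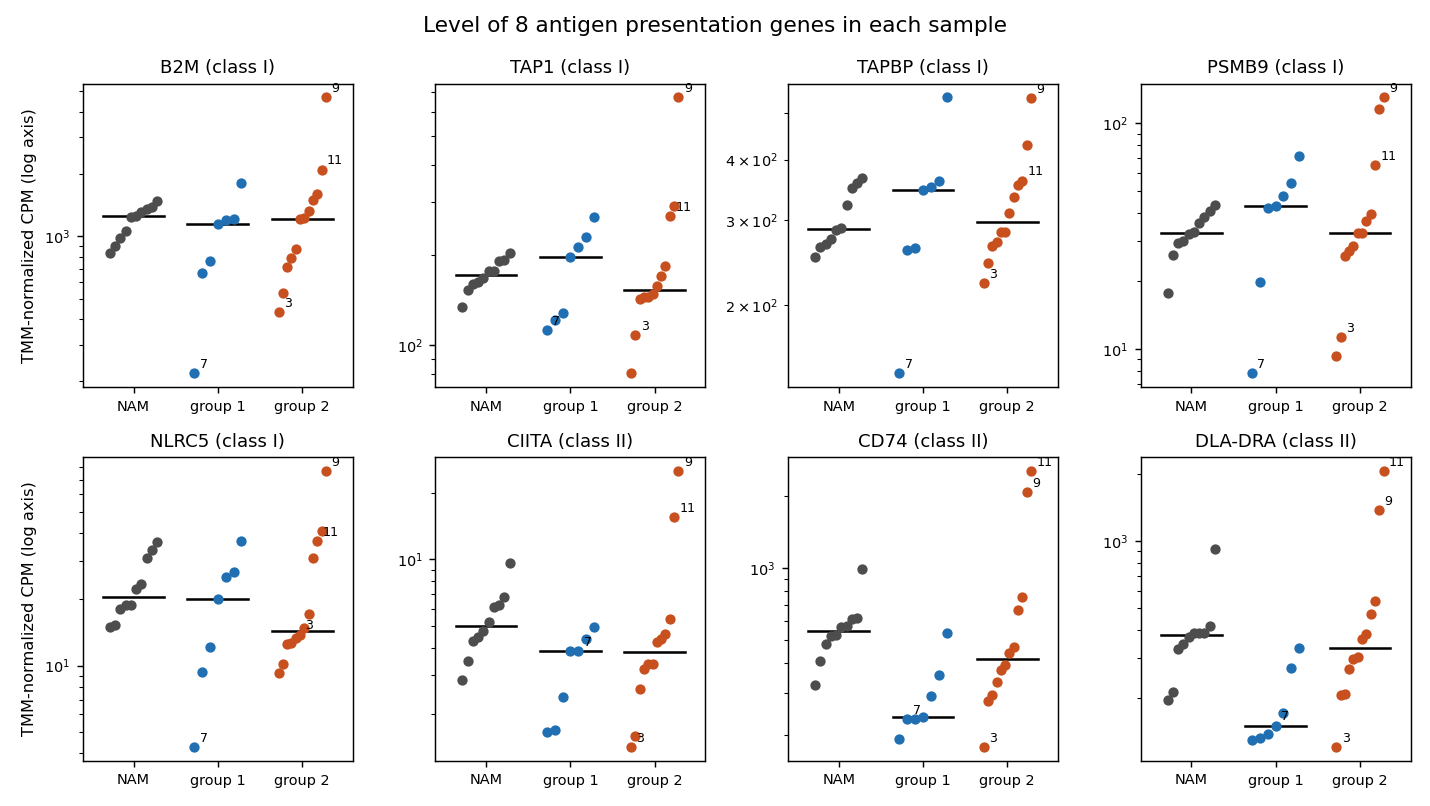
Level of each antigen presentation gene in each of the 29 dog samples, as TMM-normalized CPM on a log axis with its own range in each panel. Each dot is 1 sample, sorted by level within its group; black lines are group medians. NAM is normal adrenal medulla (10 samples), and the PPGLs are tumors (7 in group 1, 12 in group 2). Tumor 7 of group 1 and tumors 3, 9 and 11 of group 2 carry their number.

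B2M encodes the light chain shared by all class I molecules and lies on chromosome 30 (11331569 to 11337997 in CanFam3.1). Its level had a lowest, median and highest value of 828, 1248 and 1483 CPM in NAMs, 219, 1147 and 1817 CPM in group 1, and 432, 1217 and 4678 CPM in group 2. Tumor 9 of group 2 stood far above all other samples, with tumor 11 of that group next at 2094 CPM, and tumor 7 of group 1 was the lowest of the 29. Tumors therefore lay on both sides of the NAMs, with 5 of 19 above all NAMs, 7 below all NAMs and the rest among them. The log2 FC of PPGLs against NAMs was 0.10 (SE 0.30, adjusted p = 0.825), and that of group 1 against group 2 was -0.48 (SE 0.43, adjusted p = 0.578).

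TAP1 pairs with TAP2 to form the transporter that brings peptides into the endoplasmic reticulum. The gene listed as TAP1 spans 54178 bp on chromosome 12 (2378126 to 2432303), and the RefSeq gene table of the dog places TAP2 and PSMB8 next to TAP1, so its counts may include reads of these neighbors. Its level was 134, 172 and 204 CPM in NAMs, 112, 197 and 268 CPM in group 1, and 80.7, 153 and 670 CPM in group 2 (lowest, median and highest). Both ends of this range were group 2 tumors, tumor 10 at the bottom and tumor 9 at the top, and 6 of 19 tumors lay above and 5 below all NAMs. The log2 FC was 0.21 (SE 0.23, adjusted p = 0.504) for PPGLs against NAMs and -0.19 (SE 0.34, adjusted p = 0.802) for group 1 against group 2.

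TAPBP, or tapasin, holds the empty class I molecule next to the transporter while a peptide is loaded. It lies on chromosome 12 (2740276 to 2751808), and its level was 252, 287 and 366 CPM in NAMs, 145, 347 and 538 CPM in group 1, and 222, 297 and 536 CPM in group 2. This was the steadiest of the 8 genes in tumors. Only 3 tumors lay above all NAMs (tumor 4 of group 1, tumors 7 and 9 of group 2) and 3 below (tumor 7 of group 1, tumors 3 and 10 of group 2). The log2 FC was 0.10 (SE 0.15, adjusted p = 0.635) for PPGLs against NAMs, and 0.00 (SE 0.22, adjusted p = 0.994) between the groups.

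PSMB9 is an interferon-inducible catalytic subunit of the proteasome, which takes the place of PSMB6 and changes the peptides cut. It begins just after the TAP1 gene on chromosome 12 (2432505 to 2438069). Its level was 17.7, 32.6 and 43.3 CPM in NAMs, 7.79, 43.0 and 71.5 CPM in group 1, and 9.30, 32.5 and 130.5 CPM in group 2. Tumors 9 and 7 of group 2 were highest, the latter at 116 CPM, and tumor 7 of group 1 was lowest. In all, 6 tumors lay above and 3 below all NAMs. The log2 FC was 0.43 (SE 0.34, adjusted p = 0.320) for PPGLs against NAMs, the largest of the 8, and -0.16 (SE 0.48, adjusted p = 0.886) for group 1 against group 2.

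NLRC5 is the transactivator of class I genes and lies on chromosome 2 (59280390 to 59338931). Its level was 14.96, 20.6 and 36.3 CPM in NAMs, 4.26, 20.1 and 37.0 CPM in group 1, and 9.30, 14.4 and 76.6 CPM in group 2. More than in the other class I genes, tumors lay low, with 10 of 19 below all NAMs, 7 of them in group 2, and yet tumor 9 of group 2 was again the highest of all samples. The log2 FC of PPGLs against NAMs was -0.06 (SE 0.32, adjusted p = 0.906) and became 0.024 when libraries were scaled by their size. That of group 1 against group 2 was -0.30 (SE 0.45, adjusted p = 0.763).

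CIITA is the transactivator of class II genes, on chromosome 6 (31774609 to 31836820). Its level was 2.86, 5.00 and 9.60 CPM in NAMs, 1.66, 3.85 and 4.94 CPM in group 1, and 1.42, 3.80 and 25.0 CPM in group 2. Only tumors 9 and 11 of group 2, the latter at 15.5 CPM, lay above all NAMs, and 6 tumors lay below all NAMs, 3 in each group. The log2 FC of PPGLs against NAMs was -0.07 (SE 0.38, adjusted p = 0.903), or 0.023 with libraries scaled by their size. That of group 1 against group 2 was -0.93 (SE 0.53, adjusted p = 0.345).

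CD74 is the invariant chain, which guards the groove of new class II molecules and guides them to the endosome. It lies on chromosome 4 (58689752 to 58698151), and its level was 323, 543 and 994 CPM in NAMs, 192, 238 and 532 CPM in group 1, and 178, 417 and 2547 CPM in group 2. Group 1 lay low, with 5 of its 7 tumors below all NAMs, and its highest, tumor 3, was still below the median NAM. In group 2, tumors 11 and 9 lay above all NAMs, the latter at 2084 CPM, and the next, tumor 4, was among the NAMs at 753 CPM. For PPGLs against NAMs the log2 FC was 0.03 (SE 0.38, adjusted p = 0.963).

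DLA-DRA encodes the alpha chain of the class II molecule DR, and lies on chromosome 12 (2132499 to 2168975) in the same stretch as TAP1, PSMB9 and TAPBP. Its level was 196, 380 and 925 CPM in NAMs, 129, 150 and 332 CPM in group 1, and 120, 334 and 2049 CPM in group 2. As for CD74, 5 of 7 group 1 tumors lay below all NAMs, and tumors 11 and 9 of group 2 were the highest of all samples. Sample 10 of the NAMs stood apart from the other NAMs, whose highest was 416 CPM. PPGLs against NAMs had a log2 FC of 0.07 (SE 0.41, adjusted p = 0.909). Dog class II genes are close paralogs and vary between animals, and how reads that fit several genes were handled is not given in the sources used here, so levels of DLA genes are uncertain.

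Class II genes gave the only call among the 8. Between the PPGL groups, where the threshold was the authors' adjusted p below 0.1, the QL test called 6.92% of 14666 genes, 3.97% higher and 2.95% lower in group 1, and 1 of the 8 genes, DLA-DRA. Its log2 FC was -1.54 (SE 0.50, adjusted p = 0.0935), and that of CD74 was -1.30 (SE 0.49, adjusted p = 0.148). These were also the 2 with an unadjusted p under 0.05. DESeq2 called both, with an adjusted p of 0.0180 for DLA-DRA and 0.0550 for CD74, and the Mann-Whitney U-test called neither. The adjusted p of DLA-DRA ran from 0.0180 to 0.594 over its alternatives and that of CD74 from 0.0550 to 0.717.

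The DLA-DRA call lay near its threshold. It ended in 11 of 19 fits that left out 1 tumor: the adjusted p was 0.131, 0.135, 0.149, 0.140 and 0.178 without tumors 1, 2, 4, 6 and 7 of group 1, and 0.1255, 0.108, 0.106, 0.130, 0.111 and 0.128 without tumors 4, 7, 8, 9, 10 and 11 of group 2. The log2 FC in these fits was -1.30 without tumor 9 and -1.12 without tumor 11 of group 2, and stayed between -1.45 and -1.58 in the others. With tumors 9 and 11 both left out it was -0.74 (SE 0.29), but these tumors were chosen after seeing the data, as the highest in DLA-DRA, which by itself brings the groups closer. Scaling by library size gave -1.48 (adjusted p = 0.103) and also ended the call. The number of all genes called between the groups fell from 1015 to 525 without tumor 7 of group 1 and to 674 without tumor 4 of group 2.

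Against the same 10 NAMs, the tumor groups were also fitted side by side. In group 1, 0 of the 8 genes passed an adjusted p below 0.05 by the QL test, 2 had an unadjusted p under 0.05, and 35.1% of the 15201 genes tested were called, 21.0% higher and 14.1% lower. In group 2, 0 of the 8 passed, 0 had an unadjusted p under 0.05, and 32.9% of all genes were called, 18.4% higher and 14.5% lower. The values of DLA-DRA were -1.07 (SE 0.45, adjusted p = 0.0646) in group 1 and 0.46 (SE 0.38, adjusted p = 0.367) in group 2, and DESeq2 called the first (log2 FC -1.09, adjusted p = 0.0345, range over alternatives 0.0345 to 0.135). Those of CD74 were -0.93 (SE 0.43, adjusted p = 0.0936) and 0.38 (SE 0.37, adjusted p = 0.447), and those of CIITA -0.73 (SE 0.47, adjusted p = 0.229) and 0.20 (SE 0.40, adjusted p = 0.725).

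None of the class I genes passed in either group. The log2 FC of B2M was -0.24 (SE 0.37) in group 1 and 0.26 (SE 0.32) in group 2, that of NLRC5 -0.28 (SE 0.41) and 0.05 (SE 0.35), and that of PSMB9 0.31 (SE 0.42) and 0.49 (SE 0.37). For TAP1 it was 0.07 (SE 0.29) and 0.28 (SE 0.26), and for TAPBP 0.09 (SE 0.19) and 0.10 (SE 0.17). With libraries scaled by their size in place of TMM, the median log2 FC of all genes in group 1 against NAMs moved from 0.13 to 0.24, and the values here are to be read against that shift.

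**Figure D2:**
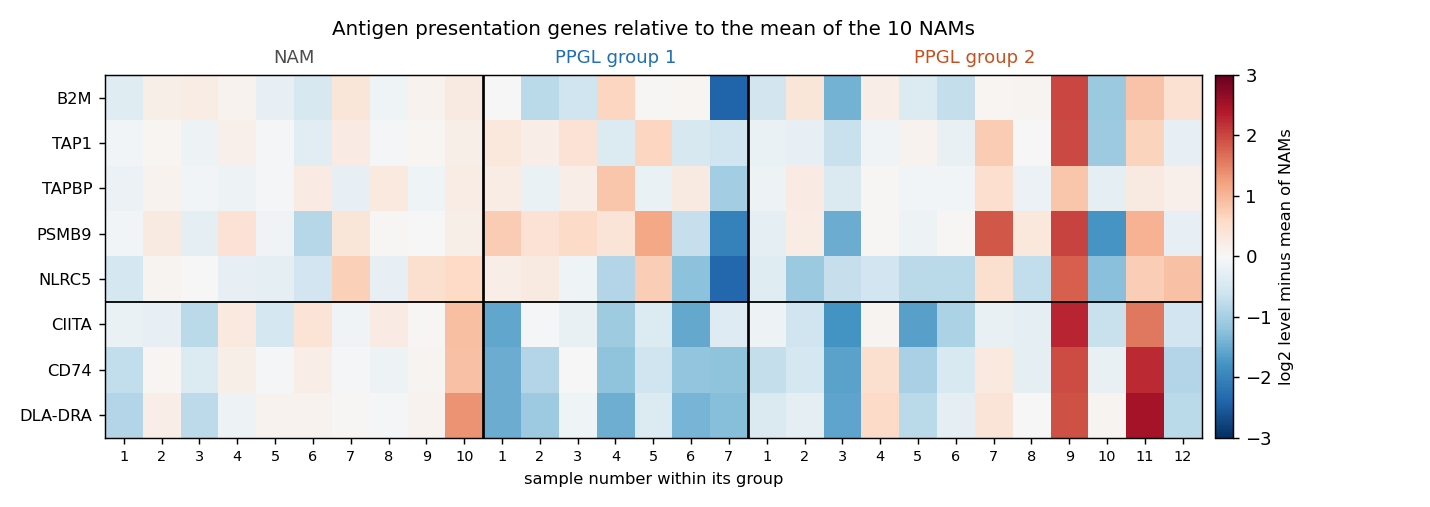
Antigen presentation genes in each of the 29 dog samples, relative to the mean of the 10 normal adrenal medullas (NAMs). Color is the log2 TMM-normalized level minus the mean log2 level of the NAMs, red for higher and blue for lower. Columns are samples in the order of their number within the NAMs, the 7 tumors of group 1 and the 12 of group 2. The 5 genes above the black line belong to class I, and the 3 below it to class II.

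A few tumors were far from the NAMs in nearly all of the genes. Tumor 9 of group 2 was above all NAMs in 8 of 8 genes and the highest of the 19 tumors in 5, and tumor 11 of group 2 was above all NAMs in 7 of 8 and the highest tumor in 2. At the other end, tumor 3 of group 2 was below all NAMs in 8 of 8 genes, and tumor 7 of group 1 in 7 of 8. Tumor 6 of group 1 and tumor 10 of group 2 were each below all NAMs in 5 of 8. Tumor 4 of group 1 went both ways: it had the highest TAPBP of the tumors, lay above all NAMs in 2 genes and below all NAMs in 5.

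The SD of log2 levels among tumors was larger than among NAMs for each of the 8 genes. It was 3.78 times as large for TAP1, 3.29 times for B2M, 2.91 times for PSMB9, 2.46 times for CD74, 2.21 times for TAPBP, 2.12 times for NLRC5, 2.06 times for CIITA and 1.82 times for DLA-DRA. Without tumors 9 and 11 of group 2, left out after seeing the data, class I genes kept most of that spread (2.70 times for B2M, 2.71 times for TAP1), whereas those of class II genes were nearer 1, at 1.41 times for CD74, 1.23 times for CIITA and 1.14 times for DLA-DRA. Leaving out the highest samples narrows the spread by itself, and these ratios were not tested.

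In the other 17 tumors the log2 FC against NAMs was -0.61 for CD74 (SE 0.21), -0.68 for CIITA (SE 0.23) and -0.59 for DLA-DRA (SE 0.25). Tumors 9 and 11 had been picked as the highest in these genes, so a lower value of the rest follows in part from the choice, and these values are a description without a test.

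Per kilobase of exon, B2M had the highest level of the 8, with a mean of 1380.5 CPM per kb in NAMs (SD 262), 1174 in group 1 (SD 595) and 1654 in group 2 (SD 1327). In NAMs it was followed by CD74 (243 CPM per kb, SD 76.7), DLA-DRA (205, SD 104), TAPBP (115, SD 16.2), PSMB9 (39.7, SD 9.15), TAP1 (21.0, SD 2.55), NLRC5 (3.78, SD 1.25) and CIITA (0.960, SD 0.344). In this order of levels, CD74 and DLA-DRA, and DLA-DRA and TAPBP, were no farther apart than the sum of their SDs. In group 1 DLA-DRA came after TAPBP (97.8 against 123 CPM per kb), again within that sum, and in group 2 the order was that of the NAMs, with each gene and the next no farther apart than the sum of their SDs, B2M and CD74 included.

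Among the 19 tumors, CD74 and DLA-DRA went together most closely of all pairs. Their log2 levels had an r of 0.99 and a rho of 0.99 (permutation p 1e-05, the smallest that 100000 permutations can give, adjusted p 0.00014 for rho over 28 pairs, r 0.97 without the 2 tumors farthest from the median). CIITA had an r of 0.90 and a rho of 0.73 with CD74 (p = 0.00043, adjusted p = 0.00241, r 0.71 without the 2 farthest), and an r of 0.87 and a rho of 0.72 with DLA-DRA (p = 0.0008, adjusted p = 0.00373, r 0.67 without the 2 farthest). All 3 class II pairs passed an adjusted p below 0.05 by rho.

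Of the 10 class I pairs, 5 passed by rho. TAP1 and PSMB9, neighbors on chromosome 12, had an r of 0.88 and a rho of 0.90 (p 1e-05, again the smallest possible, adjusted p = 0.00014, r 0.87 without the 2 farthest). B2M and TAPBP had an r of 0.87 and a rho of 0.80 (p = 0.00011, adjusted p = 0.00103, r 0.72 without the 2 farthest), whereas in NAMs their rho was -0.26. NLRC5 had an r of 0.82 and a rho of 0.78 with TAP1 (p = 0.00032, adjusted p = 0.00224, r 0.73 without the 2 farthest) and an r of 0.79 and a rho of 0.71 with PSMB9 (p = 0.00111, adjusted p = 0.00444, r 0.63 without the 2 farthest). TAPBP and PSMB9 were the last of the 5, with an r of 0.73 and a rho of 0.58 (p = 0.0105, adjusted p = 0.0361, r 0.71 without the 2 farthest).

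Between class I and class II genes, 1 of 15 pairs passed by rho, TAP1 and CIITA (r 0.69, rho 0.57, p = 0.0116, adjusted p = 0.0361, r 0.50 without the 2 farthest). Over all 28 pairs rho ran from 0.16 to 0.99 with a median of 0.47, and 9 passed by rho but 25 by r. Within the groups, which were not tested, the median rho was 0.16 in group 1 and 0.64 in group 2. Some pairs had opposite signs, such as B2M with CIITA (-0.64 and 0.73) and TAPBP with CIITA (-0.68 and 0.64), and TAPBP with PSMB9 had 0.04 and 0.80. Without tumors 9 and 11 of group 2, 7 passed by rho and 9 by r, and no pair between the classes passed by either. The pairs TAP1 with CIITA and TAPBP with PSMB9 no longer passed by rho (0.41 with an adjusted p of 0.304, and 0.47 with an adjusted p of 0.208). With libraries scaled by their size, TAP1 and CIITA also missed the threshold (rho 0.52, adjusted p = 0.0551), and TAP1 and CD74 passed it (rho 0.55, adjusted p = 0.0479). All pairs share the same 19 tumors.

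Over 12688 named genes outside the lists, the 5 whose log2 levels followed B2M most closely in the 19 tumors were FUCA1 (rho 0.84), SQOR (0.84), LYSMD2 (0.81), SCPEP1 (0.81) and ASAH1 (0.80). For CD74 they were RGS18 (rho 0.93), GBP1 (0.90), INPP5D (0.87), ARHGAP45 (0.87) and GPR65 (0.87). No gene was among the closest 5 of both.

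Levels of immune cell markers moved with the class II genes. A pan-leukocyte score, the mean log2 level of 8 markers, was highest in tumors 11 and 9 of group 2, at 6.70 and 5.23, against a mean of 3.70 in NAMs (SD 0.53), 3.38 in group 1 (SD 0.59) and 3.94 in group 2 (SD 1.13). Correlation with this score and with an adrenal cortex score was added after seeing the data and gave 16 pairs. With the leukocyte score, CIITA had an r of 0.90 and a rho of 0.88 in the 19 tumors (permutation p 1e-05, the smallest possible, adjusted p = 0.00016, r 0.88 without the 2 farthest tumors, which were tumors 9 and 11 of group 2). DLA-DRA had an r of 0.92 and a rho of 0.79 (p = 0.00011, adjusted p = 0.00088, r 0.78 without the 2 farthest), and CD74 an r of 0.93 and a rho of 0.79 (p = 0.00017, adjusted p = 0.000907, r 0.84 without the 2 farthest).

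For the class I genes the correlation with the leukocyte score depended on the tumors taken. TAP1 (r 0.62, rho 0.66, p = 0.00269, adjusted p = 0.0108, r 0.46 without the 2 farthest) and NLRC5 (r 0.54, rho 0.61, p = 0.00706, adjusted p = 0.0226, r 0.31 without the 2 farthest) passed among the 19 tumors. Their adjusted p was 0.120 and 0.170 without tumors 9 and 11. For PSMB9 (r 0.50, rho 0.52, p = 0.0242, adjusted p = 0.0645, r 0.36 without the 2 farthest), B2M (r 0.45, rho 0.37, p = 0.116, adjusted p = 0.232, r 0.06 without the 2 farthest) and TAPBP (r 0.25, rho 0.19, p = 0.439, adjusted p = 0.530, r -0.04 without the 2 farthest) the threshold was not passed. Within the 12 tumors of group 2 alone, rho with the leukocyte score was 0.82 for B2M, 0.73 for TAPBP, 0.73 for NLRC5, 0.71 for PSMB9 and 0.64 for TAP1, against 0.81 for CD74. Within the 7 tumors of group 1 it was -0.61 for B2M and -0.68 for TAPBP, so that the value over all 19 tumors mixes opposite signs for these genes. The values within a group were not tested. None of the 8 passed with the cortex score, where rho ran from -0.37 for PSMB9 to 0.34 for DLA-DRA.

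With the leukocyte score as a covariate, CD74 had a log2 FC of -0.39 in PPGLs against NAMs (SE 0.14, adjusted p = 0.0332, range over alternatives 0.0225 to 0.995), and was the only one of the 8 genes called. With the cortex score as the covariate, CD74 had 0.50 (SE 0.58, adjusted p = 0.595) and DLA-DRA 0.66 (SE 0.61, adjusted p = 0.498), both positive as without a covariate. Between the PPGL groups, DLA-DRA was still called with the leukocyte score as the covariate, at a log2 FC of -0.63 (SE 0.20, adjusted p = 0.0742, range 0.0180 to 0.594). CD74 then had -0.37 (SE 0.20, adjusted p = 0.327) and CIITA 0.00 (SE 0.27, adjusted p = 0.997).

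The proteasome genes were also compared within each sample, as the log2 ratio of an inducible subunit to the subunit it replaces, which does not depend on the scaling between libraries. The ratio of PSMB10 to PSMB7 was -2.71, -2.21 and -1.77 in NAMs, -4.78, -3.60 and -3.14 in group 1, and -5.03, -3.54 and -1.83 in group 2 (lowest, median and highest). It lay below all NAMs in 17 of 19 tumors, all but tumors 9 and 11 of group 2. PPGLs were lower than NAMs by a log2 difference of -1.38 (SE 0.20, two-sided permutation p = 2e-05, adjusted p = 6e-05 over the 3 ratios computed), and group 1 differed from group 2 by -0.32 (SE 0.34, p = 0.405, adjusted p = 0.608). Without tumors 9 and 11 of group 2, which had the highest ratios of the tumors, the difference from NAMs was -1.54 (SE 0.18). The rho of the ratio with the adrenal cortex score, computed after seeing the data and not tested, was 0.71 among the NAMs, 0.00 in group 1 and 0.10 in group 2. The ratio was not fitted with that score.

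The ratio of PSMB9 to PSMB6 did not pass in either comparison. It was -2.82, -1.92 and -1.47 in NAMs, -3.17, -1.30 and -0.0036 in group 1, and -3.72, -1.38 and 0.56 in group 2. It lay above all NAMs in 12 of 19 tumors and below all NAMs in 3. The difference of PPGLs from NAMs was 0.61 (SE 0.28, p = 0.105, adjusted p = 0.158), and that of group 1 from group 2 was -0.07 (SE 0.51, p = 0.891, adjusted p = 0.891). PSMB6, its denominator, was itself called lower in PPGLs by the QL test (log2 FC -0.47). The rho of this ratio with the cortex score, not tested, was -0.31 among the NAMs, -0.25 in group 1 and -0.61 in group 2. The ratio of CD74 to B2M, which sets class II beside class I, differed by -0.21 between PPGLs and NAMs (SE 0.25, p = 0.485, adjusted p = 0.485), with 6 tumors below and 3 above all NAMs, and by -0.46 between the groups (SE 0.48, p = 0.288, adjusted p = 0.608).

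Of 9 partners of the class I genes in processing and loading, PSMB10, the subunit that replaces PSMB7, fell and the other 8 did not pass in PPGLs against NAMs by the QL test, beside 22.3% of all genes higher and 15.2% lower. Their median log2 FC was 0.03. PSMB10 had 19.6, 33.1 and 53.3 CPM in NAMs, 6.04, 14.0 and 21.2 CPM in group 1, and 5.31, 12.5 and 62.8 CPM in group 2. In 14 of 19 tumors it lay below all NAMs, and tumor 9 of group 2 was the only one above them. Its log2 FC was -1.03 (SE 0.29, adjusted p = 0.00579), with -1.33 in group 1 (adjusted p = 0.00816) and -0.89 in group 2 (adjusted p = 0.0324) against the same NAMs. With the cortex score as a covariate the call in PPGLs ended (-0.60, adjusted p = 0.359). The group 2 call ended with libraries scaled by their size (-0.78, adjusted p = 0.0662, range over alternatives 0.0117 to 0.0662).

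The constitutive subunits and CALR complete the class I arm. Of 3 constitutive subunits, PSMB6 fell (log2 FC -0.47, SE 0.10, adjusted p = 0.000551, below all NAMs in 15 of 19 tumors), with a median of -0.21 over the 3. This stands beside 15.2% of all genes lower and 22.3% higher in PPGLs. CALR, or calreticulin, a chaperone of the loading complex, was called in group 1 against NAMs (log2 FC 0.84, SE 0.23, adjusted p = 0.00533, above all NAMs in 4 of 7 tumors), where 21.0% of all genes were higher. Its level was 555, 746 and 1027 CPM in NAMs and 657, 1259 and 2596 CPM in group 1. In group 2 it did not pass (0.21, adjusted p = 0.453).

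Among class I heavy chains, 3 of 4 were found by name (DLA-12 was not), with a median log2 FC of 0.67 in PPGLs against NAMs. DLA-79 rose by 1.53 (SE 0.57, adjusted p = 0.0342), from 7.45, 21.4 and 56.2 CPM in NAMs to 6.38, 47.2 and 267 CPM in group 1 and 3.46, 42.7 and 207 CPM in group 2. It lay above all NAMs in 7 of 19 tumors and below in 2. This call ended without NAM 1, 5, 6, 7, 9 or 10, tumor 1 or 6 of group 1, or tumor 9 of group 2, each left out alone, with an adjusted p of 0.0502 to 0.0614 and a log2 FC still at 1.28 to 1.51. It also ended without tumors 9 and 11 of group 2 together (adjusted p = 0.0603), by the Mann-Whitney U-test (0.279) and with the cortex score as a covariate (0.252), within a range of 0.00881 to 0.299 over alternatives. DLA-88 (0.67, SE 0.60, adjusted p = 0.399) and DLA-64 (0.41, SE 0.29, adjusted p = 0.265) did not pass. Heavy chains differ between dogs, and a genome of another dog may take up their reads unequally.

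**Figure D3:**
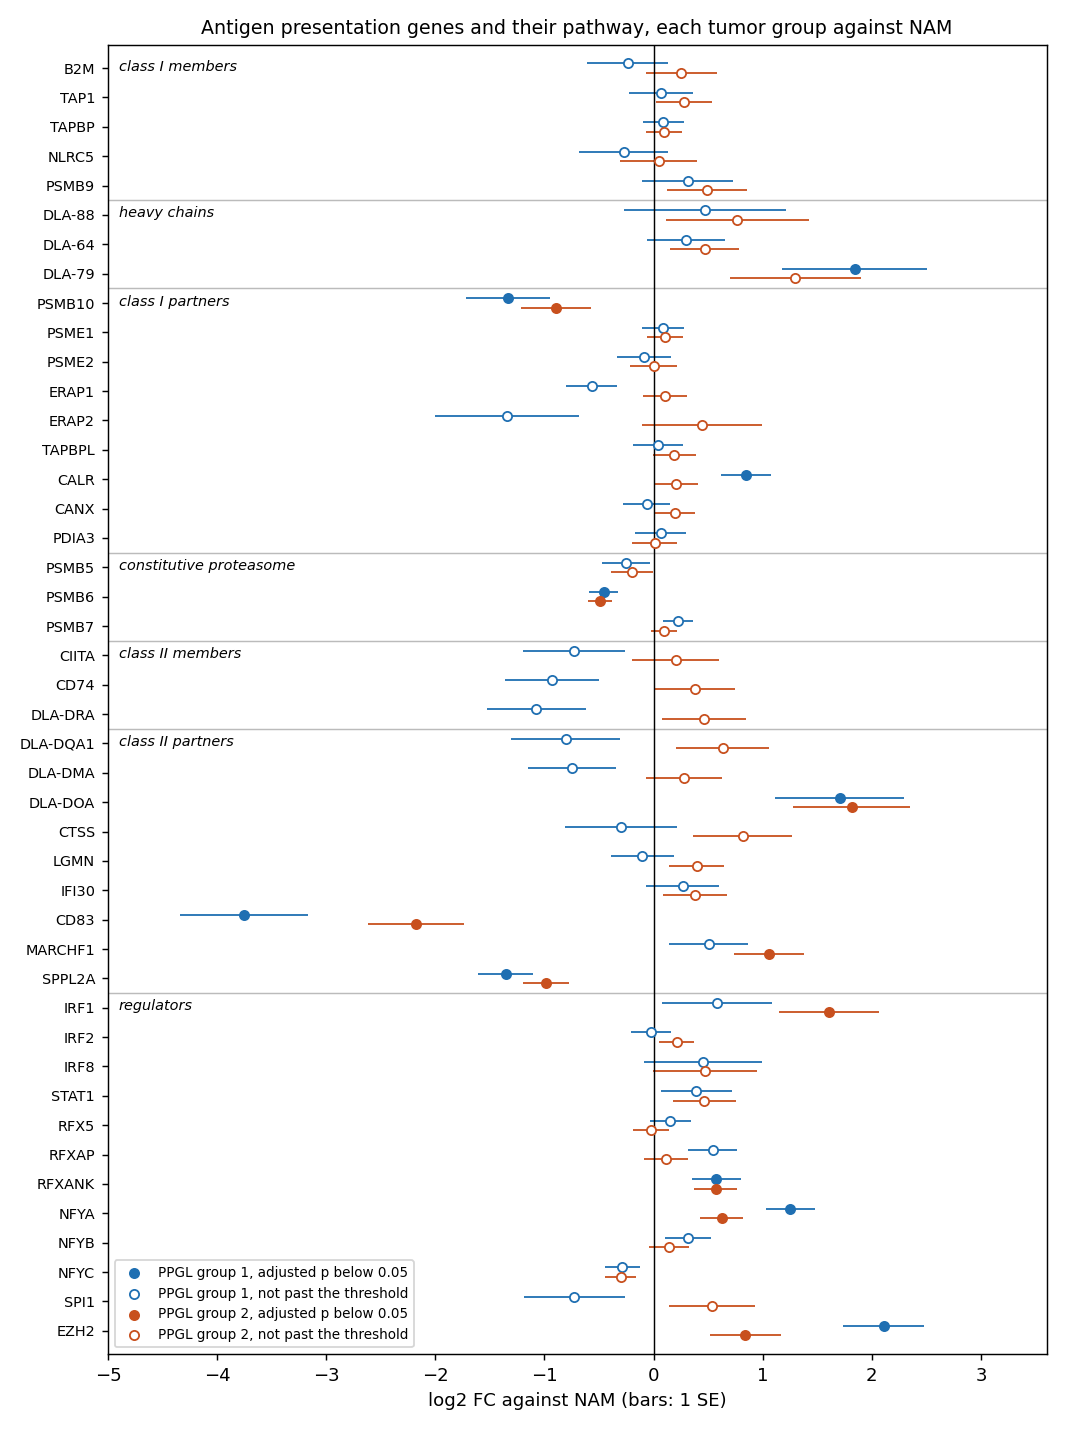
Log2 fold change (FC) of antigen presentation genes and of genes of their pathway, for PPGLs of group 1 (blue, 7 tumors) and of group 2 (orange, 12 tumors) against the same 10 normal adrenal medullas (NAMs), from edgeR's quasi-likelihood test. Bars are 1 SE. Filled points have an adjusted p below 0.05 over all genes tested. DLA-DOA passed the filter through its counts in tumors, so its p is no test of a rise. Under scaling by library size the group 2 call of PSMB10 ended, and with DESeq2's size factors the group 1 call of RFXANK and the group 2 call of EZH2 ended.

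Of 14 class II partners listed 9 were found and tested. In PPGLs against NAMs 2 of the 9 were called higher, 2 fell and 5 did not pass, beside 22.3% of all genes higher and 15.2% lower, and the median log2 FC was 0.26. Of the 2 called higher, DLA-DOA passed the filter through its counts in tumors. CD83, which keeps class II molecules on the surface by opposing MARCHF1, fell by 2.58 (SE 0.43, adjusted p = 5e-05), from 18.7, 57.3 and 179 CPM in NAMs to 1.71, 4.06 and 16.5 CPM in group 1 and 3.82, 13.9 and 51.1 CPM in group 2. All 7 group 1 tumors and 8 of 12 group 2 tumors lay below all NAMs. With the cortex score as a covariate its log2 FC was -0.96 and the call ended (adjusted p = 0.166, range over alternatives 4.23e-08 to 0.166). SPPL2A, the protease that clears the last fragment of CD74 from the membrane, fell by 1.11 (SE 0.19, adjusted p = 6.25e-05, below all NAMs in 14 of 19 tumors).

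The genes called higher were a ubiquitin ligase and an editor of peptide loading. MARCHF1, the ligase that removes class II molecules from the surface, rose by 0.88 (SE 0.30, adjusted p = 0.0232, above all NAMs in 6 of 19 tumors). It no longer passed without tumors 9 and 11 of group 2 (adjusted p = 0.0515, range over alternatives 0.0105 to 0.102). DLA-DOA, a chain of the molecule that restrains peptide loading, had a log2 FC of 1.78 (SE 0.50, adjusted p = 0.00604). It had 2 to 24 counts in NAMs, passed the filter through its counts in tumors and was not tested when at least 1 CPM was asked for. The p of DLA-DOA is therefore no test of a rise, and its log2 FC is a description. Its levels were low, at 0.102, 0.229 and 0.892 CPM in NAMs, 0.310, 0.686 and 2.68 CPM in group 1 and 0.0949, 1.00 and 3.86 CPM in group 2. The class II chain DLA-DQA1 (0.26, SE 0.44, adjusted p = 0.669) and DLA-DMA, which loads peptides (-0.02, SE 0.34, adjusted p = 0.976), did not pass.

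Between the PPGL groups, 0 of these 9 class II partners passed by the QL test, beside 6.92% of all genes. All 9 had a negative log2 FC, with a median of -0.55 against 0.04 over all genes, and so had all 8 pan-leukocyte markers (median -1.02) and all 9 macrophage markers (median -0.35). The values were -1.44 for DLA-DQA1 (SE 0.54, adjusted p = 0.146), -1.56 for CD83 (SE 0.55, adjusted p = 0.119) and -1.03 for DLA-DMA (SE 0.46, adjusted p = 0.222). None of the class I heavy chains, class I partners or constitutive subunits passed either, with medians of -0.16, -0.14 and 0.04.

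Of 12 regulators of MHC genes, 4 rose in PPGLs against NAMs and 0 fell by the QL test, beside 22.3% of all genes higher and 15.2% lower, and their median log2 FC was 0.37. IRF1, an interferon-induced factor that drives NLRC5 and class I genes, had 10.4, 17.6 and 26.9 CPM in NAMs, 6.95, 22.3 and 59.7 CPM in group 1 and 11.7, 29.8 and 251.5 CPM in group 2. Tumor 4 of group 2 was far above the rest, of which the next was tumor 9 at 97.3 CPM, and 9 of 19 tumors lay above all NAMs. The log2 FC was 1.31 (SE 0.45, adjusted p = 0.0219), and by the Mann-Whitney U-test it did not pass (adjusted p = 0.0985, range over alternatives 0.00622 to 0.161).

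The other 3 regulators belong to the complexes that bind MHC promoters or to the machinery that silences them. NFYA, a subunit of the factor that binds the CCAAT box, rose by 0.89 (SE 0.21, adjusted p = 0.00133, above all NAMs in 14 of 19 tumors). RFXANK, a subunit of the RFX complex, rose by 0.58 (SE 0.18, adjusted p = 0.0135, above all NAMs in 10 of 19 tumors). EZH2, the methyltransferase that can silence MHC genes, rose by 1.45 (SE 0.37, adjusted p = 0.00313, above all NAMs in 13 of 19 tumors). With the cortex score as a covariate the log2 FC of EZH2 was 0.35 and that of NFYA 0.44, and both calls ended (adjusted p = 0.596, range over alternatives 2.3e-06 to 0.596, and 0.274, range 0.000155 to 0.274), as did that of RFXANK (0.39, adjusted p = 0.303, range 0.0054 to 0.303).

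EZH2 was also called between the groups. Its level was 5.22, 9.58 and 17.3 CPM in NAMs, 15.6, 22.9 and 175 CPM in group 1, and 11.5, 18.1 and 27.6 CPM in group 2. Tumor 7 of group 1, the one with the lowest B2M, NLRC5, TAPBP and PSMB9, was far above all other samples, and the next of its group had 30.7 CPM. The log2 FC of group 1 against group 2 was 1.25 (SE 0.38, adjusted p = 0.0757), and without that tumor 0.31 (adjusted p = 0.478). The call also ended without tumor 2, 4, 5, 8 or 11 of group 2 (log2 FC of 1.21 to 1.25, adjusted p = 0.105, 0.110, 0.103, 0.105 and 0.101), by DESeq2 (log2 FC 0.28, adjusted p = 0.414) and by the Mann-Whitney U-test (0.309), within a range of 0.0644 to 0.659 over alternatives. The median of the 12 regulators was 0.02 between the groups.

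In the interferon gamma pathway, 7 of 9 genes were found and 6 tested, and in PPGLs against NAMs 2 fell and 0 rose, beside 15.2% of all genes lower and 22.3% higher. The median log2 FC was -0.31. JAK1, a kinase of the receptor, fell by 0.68 (SE 0.13, adjusted p = 0.000177, below all NAMs in 17 of 19 tumors). SOCS1, the feedback inhibitor of that signal, fell by 2.10 (SE 0.64, adjusted p = 0.0110), from 0.0787, 2.25 and 6.60 CPM in NAMs to 0.0583, 0.177 and 0.569 CPM in group 1 and 0, 0.560 and 3.105 CPM in group 2. NAMs ran over nearly the whole range of SOCS1, with only 3 tumors below them all, and the Mann-Whitney U-test did not call it (adjusted p = 0.0529, range over alternatives 0.00203 to 0.654). IFNG itself did not pass the low-count filter, with a highest level of 0.517 CPM, in tumor 9 of group 2.

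Interferon-induced CXCL10 was called between the groups, with a log2 FC of -3.95 (SE 1.24, adjusted p = 0.0838). It had 3 to 39 counts in group 1 and passed the filter of this comparison through its counts in group 2. That p is therefore no test of a difference, and the log2 FC is a description. Levels of CXCL10 were 0.623, 2.55 and 13.2 CPM in NAMs, 0.175, 0.438 and 1.16 CPM in group 1 and 0, 1.24 and 47.8 CPM in group 2. Only 3 tumors, 4, 9 and 11 of group 2, lay above all NAMs. The call ended without tumor 1, 2, 3, 4, 6 or 7 of group 1 or tumor 4, 9 or 11 of group 2 (log2 FC of -4.11 to -3.35, adjusted p of 0.103 to 0.144), with the leukocyte score as a covariate (0.325) and by the Mann-Whitney U-test (0.426), within a range of 0.00138 to 0.679 over alternatives. The median of the pathway was -1.14 between the groups, and IDO1, an enzyme induced by interferon gamma, had -2.57 (SE 0.87, adjusted p = 0.106).

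Of 5 co-stimulation and checkpoint ligands, which accompany the peptide signal, 0 passed in PPGLs against NAMs by the QL test, beside 37.5% of all genes (median log2 FC 0.08). Between the groups all 5 had negative values (median -1.16), as had all 8 pan-leukocyte markers (median -1.02) and all 7 T and NK cell markers (median -1.20). Of the 5, CD80, a ligand of CD28, was called at -2.33 (SE 0.72, adjusted p = 0.0768), beside 6.92% of all genes. It had 7 to 68 counts in group 1 and passed the filter only with its counts in group 2, so that p is no test. Its level was 2.07, 3.72 and 6.32 CPM in NAMs, 0.399, 1.08 and 2.33 CPM in group 1 and 0.546, 3.53 and 32.4 CPM in group 2. In 6 of 7 group 1 tumors CD80 lay below all NAMs, and tumor 11 of group 2 was highest. The call ended without tumor 1, 2, 4, 6 or 7 of group 1 or tumor 4 or 11 of group 2 (log2 FC of -2.33 to -1.58, adjusted p of 0.107 to 0.135) and by the Mann-Whitney U-test (0.170), within a range of 0.00627 to 0.510. Against NAMs CD80 fell by 1.75 in group 1 (SE 0.60, adjusted p = 0.0244), where IDO1 fell by 2.70 (SE 0.82, adjusted p = 0.0114).

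Across these pathway lists, 13 of 47 genes tested were called in PPGLs against NAMs, or 27.7%, below the 37.5% of all genes. They include DLA-DOA, which passed the filter through its counts in tumors. The same 13 were called with DESeq2, with its size factors, with scaling by library size and with the leukocyte score as a covariate. The Mann-Whitney U-test called 10 of them (not DLA-79, IRF1 and SOCS1), and 11 were called without tumors 9 and 11 of group 2. Against the same NAMs, 14 of the 47 were called in group 1 (29.8%, against 35.1% of all genes) and 11 in group 2 (23.4%, against 32.9%). Both of these counts also include DLA-DOA. With the cortex score as a covariate only IRF1 and JAK1 of the 13 were still called, and the number of all genes called went from 5541 to 2080. The cortex score had a mean of 10.28 in NAMs (SD 0.70), 1.76 in group 1 (SD 1.41) and 6.96 in group 2 (SD 1.78), so it moved with the contrast itself. Under that covariate the log2 FC of some genes shrank, as for CD83, EZH2, NFYA and RFXANK, with -0.60 for PSMB10 (adjusted p = 0.359) and -0.72 for SOCS1 (0.654). Others lost the call with a log2 FC near that without the covariate: 1.77 for DLA-DOA (adjusted p = 0.0684), 1.02 for MARCHF1 (0.102), 1.36 for DLA-79 (0.252) and -0.41 for PSMB6 (0.0616). SPPL2A had -0.75 (0.0621). The ranges over alternatives were 4.89e-05 to 0.359 for PSMB10, 0.00106 to 0.0684 for DLA-DOA, 8.72e-06 to 0.0616 for PSMB6, and 4.01e-07 to 0.0621 for SPPL2A.

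Markers of other cell types were summed per sample. The 8 pan-leukocyte markers, of which LCP1 was most abundant, gave 83.1, 147 and 249.5 CPM in NAMs, 85.6, 158 and 181 CPM in group 1 and 85.9, 143 and 1039 CPM in group 2, where tumor 11 was highest and tumor 9 next at 359.6 CPM. LCP1 weighs most in this sum and had a log2 FC of 0.55 in group 1 against NAMs, whereas 6 of the 8 markers had negative values there and all 8 against group 2. The macrophage and monocyte markers (9 of 10 found, C1QC most abundant) gave 439, 901 and 1493 CPM in NAMs, 242, 575 and 1302 CPM in group 1 and 176, 564 and 2554 CPM in group 2, and here tumor 9 was highest and tumor 11 next at 2127 CPM. Tumor 3 of group 2, with the lowest CD74 and DLA-DRA, was also the lowest in this sum. The T and NK cell markers (10 of 11 found, CD5 most abundant) gave 11.0, 38.7 and 67.8 CPM in NAMs, 4.88, 12.0 and 44.4 CPM in group 1 and 8.82, 25.4 and 309.6 CPM in group 2, highest in tumor 11. CD5 carried most of this sum in NAMs, with a median of 29.8 CPM against 0.518 CPM in group 1 and 5.15 CPM in group 2, so the sum mainly follows CD5 there.

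The dendritic cell markers (5 of 7 found, FLT3 most abundant) gave 6.68, 13.1 and 16.1 CPM in NAMs, 5.72, 11.4 and 39.4 CPM in group 1 and 5.41, 14.2 and 30.5 CPM in group 2. The B cell markers (6 of 7 found, CD79A most abundant) gave 272, 452 and 604 CPM in NAMs, 265, 369.6 and 1247 CPM in group 1 and 186, 289 and 527 CPM in group 2. The B cell sum is nearly all CD79A, which was highest in tumor 2 of group 1 (1246 CPM), whereas MS4A1 (1.70 CPM), CD79B (4.78 CPM) and BLK (1.59 CPM) were highest in tumor 11 of group 2. The dendritic cell sum is mostly FLT3 and ZBTB46, highest in tumor 7 of group 1, whereas CCR7 (9.13 CPM) and BATF3 (3.02 CPM) were highest in tumor 11 of group 2. No gene found of any marker list was at 0 in all samples. In PPGLs against NAMs, where 22.3% of all genes were higher and 15.2% lower, the QL test called 0 of 8 pan-leukocyte, 0 of 3 dendritic cell and 0 of 3 B cell markers tested, 2 lower of 9 macrophage markers, and 5 higher (CD3E, CD2, CD8A, CD4 and GZMB) and 1 lower (CD5) of 6 T and NK cell markers. The other 4 T and NK cell markers found did not pass the low-count filter, among them GZMA, with a median of 0.569 CPM in NAMs, 0.263 CPM in group 1 and 0.110 CPM in group 2. Of those called higher, CD8A had 0 to 15 counts in NAMs and GZMB 3 to 26, so the count of 5 to 1 depends in part on the filter. Their part in the levels of the antigen presentation genes was not tested.

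The other tissue markers followed other patterns. The 11 adrenal cortex markers (CYP17A1 most abundant) gave 14406, 37798 and 69851 CPM in NAMs, 112, 293 and 1188 CPM in group 1 and 282, 3732 and 34654 CPM in group 2, and 10 of 11 were called lower in PPGLs and 10 of 11 lower in group 1 than in group 2. The 8 chromaffin markers (CHGB most abundant) gave 17575, 32066 and 96027 CPM in NAMs, 7237, 33539 and 117554 CPM in group 1 and 20338, 47748 and 100657 CPM in group 2, with 1 higher and 1 lower of 8 in PPGLs. The 8 endothelial markers (PECAM1) gave 376, 631 and 1104 CPM, 132, 403 and 1042 CPM, and 235, 396 and 851 CPM in the same order, with 4 of 8 lower in PPGLs. These counts stand beside 22.3% of all genes higher and 15.2% lower in PPGLs. Between the groups, 3.97% of all genes were higher and 2.95% lower in group 1.

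The 5 Schwann and sustentacular markers (CDH19 most abundant) gave 49.8, 88.6 and 145 CPM in NAMs, 1.70, 22.4 and 199 CPM in group 1 and 2.02, 12.0 and 106 CPM in group 2, with 0 of 4 called by the QL test. The 7 fibroblast markers (COL3A1) gave 305, 448 and 736 CPM in NAMs, 188, 565 and 2413 CPM in group 1 and 429.99, 990.2 and 25558 CPM in group 2, highest in tumor 11, with 4 of 7 higher in PPGLs. Of all genes, 22.3% were higher and 15.2% lower in PPGLs. Between the PPGL groups no marker list other than that of the cortex had a gene called by the QL test (6.92% of all genes were), but several lists had only negative values: 8 of 8 pan-leukocyte markers (median log2 FC -1.02), 9 of 9 macrophage markers (-0.35), 7 of 7 T and NK cell markers (-1.20) and 7 of 7 fibroblast markers (-2.08). The part of these cells in the levels of B2M, CD74 and the other antigen presentation genes was not tested either.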

How the data were processed

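Values were read counts over the exons of each gene, which the authors deposited for 29 samples of stranded mRNA libraries. The submitters' processing notes name FastQC, STAR, Picard, HTSeq and CanFam3.1. The deposited exon counts are themselves labeled featureCounts, so the counting program is uncertain here. The strand setting of the counting and the handling of reads with several matches are not given in the sources used here. Genes were matched by name. Low counts were removed by filterByExpr of edgeR 4.0.16 (minimum count 10, minimum total 15), and TMM, QL F-tests and Benjamini-Hochberg correction over all genes tested followed, in R 4.3.3 with limma 3.58.1. PPGLs were compared with NAMs and group 1 with group 2, and each group with NAMs in a fit of 3 levels. Log2 levels used a prior count of 2, and fold changes 0.125. Correlations and ratios used up to 100000 permutations or all 50388 divisions of the tumors, in Python 3.11.15 with numpy 2.4.6, pandas 2.3.3, scipy 1.17.1 and matplotlib 3.10.9. The QL fit was tested on simulated counts with known changes.

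Named are all antigen presentation genes found, genes of the pathway lists by their role, the most abundant and first gene of each marker list, and the 5 genes most like B2M and CD74. The lists were class I heavy chains, class I partners, class II partners, regulators, interferon gamma pathway, co-stimulation ligands, constitutive proteasome and 10 marker lists. Members and lists were chosen with earlier results of these data known. Alternatives were DESeq2 1.42.0 (its size factors, its Wald test), library size, no filter or at least 1 CPM, the Mann-Whitney U-test, sample numbers as a block, the leukocyte or cortex score as a covariate, a threshold of 0.05 between the groups, a prior count of 0.5 for ratios, and each sample left out. Leaving out tumors 9 and 11 of group 2 was chosen after seeing the data, as were the correlations with scores.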

Additional observations from a re-analysis of the deposited data

Results flagged for a closer look

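Among the 8 antigen presentation genes and 3 ratios, the lowest and highest sample were looked at in the NAMs and in group 1, which makes 22 groups. A single sample stood far from the others in 1 of them: DLA-DRA in NAM 10 had a log2 level of 9.85, against 8.70 in the next NAM, a gap of 0.516 of the whole range. Chance marks about 1 in 20 groups. Group 2, with 12 tumors, is too large for that rule, so its tumors 9 and 11 were not looked at in this way.

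Differences between PPGL group 1 and PPGL group 2 passed the test for 1 antigen presentation gene and 3 genes of the pathway lists: DLA-DRA with a log2 FC of -1.54, EZH2 with 1.25, CXCL10 with -3.95 and CD80 with -2.33. The 3 are 6.38% of 47 pathway genes tested, beside 6.92% of all genes. Each of these calls ended when certain single tumors were left out. CXCL10 and CD80 passed the filter only with their counts in group 2, so their p is no test.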

How the results depend on the processing

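Of all results under alternatives, 1440 kept their direction and side of the threshold, 95 kept the direction but no longer passed, 4 newly passed, 64 turned direction and 28 counts moved by over 1.5 times. The turned values, of which only CD74 with the leukocyte score or without tumors 9 and 11 had an adjusted p below 0.05, and the moved counts follow. The cause was not tested. In PPGLs against NAMs, library size gave NLRC5 0.0245 and CIITA 0.0230, and no filter CD74 -0.0038. The leukocyte score gave CD74 -0.39 and DLA-DRA -0.31 with 1 of the 8 genes called. The cortex score gave 2080 genes, PSMB9 -0.0225 and CIITA 0.32. Without tumors 9 and 11 of group 2, chosen after seeing that they were highest in class II genes, so that a p for those genes is no test, B2M was -0.22, TAP1 -0.0396, CD74 -0.61 and DLA-DRA -0.59, with 2 called (CIITA -0.68).

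In group 1 against group 2, 0 of the 8 were called with library size, Mann-Whitney (392 genes in all), a threshold of 0.05 (470 genes) or without tumors 9 and 11, and 2 with DESeq2 (1793 genes). No filter gave TAPBP -0.0107. The leukocyte score gave B2M 0.0259, TAP1 0.20, NLRC5 0.18, PSMB9 0.42 and CIITA 0.0030. Without tumors 9 and 11, TAP1 was 0.21, NLRC5 0.15, PSMB9 0.20, and the ratio of PSMB9 to PSMB6 0.17; 9 of 28 pairs passed by r; rho was -0.10 for TAPBP with CIITA, -0.0441 for TAPBP with the leukocyte score, and 0.0025 for TAPBP and -0.0123 for CIITA with the cortex score. In group 1 against NAMs DESeq2 called 1.

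Sample numbers do not pair the samples: 0, 2 and 0 samples correlated best with their own number between the 3 pairs of groups. As a replicate block they kept 11 of 13 pathway calls (not DLA-79 and IRF1) and gave B2M -0.17, CD74 -0.36 and DLA-DRA -0.25 in PPGLs against NAMs, 47 genes, 0 of the 8, TAP1 0.11, NLRC5 0.15 and PSMB9 0.26 between the groups, and B2M -0.17, NLRC5 -0.40, CIITA -0.42 and CD74 -0.17 in group 2 against NAMs.

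Leaving out each sample gave, in PPGLs against NAMs, 4954 to 5790 genes, 0 to 0 of the 8, B2M -0.14 to 0.16, TAP1 0.0085 to 0.26, TAPBP 0.05 to 0.14, NLRC5 -0.27 to 0.0340, PSMB9 0.27 to 0.50, CIITA -0.42 to 0.0596, CD74 -0.28 to 0.15 and DLA-DRA -0.28 to 0.30. Between the groups it gave 525 to 1218 genes, 0 to 1 of the 8, B2M -0.68 to -0.14, TAP1 -0.31 to 0.13, TAPBP -0.16 to 0.14, NLRC5 -0.54 to 0.0190, PSMB9 -0.35 to 0.10, CIITA -1.06 to -0.45, CD74 -1.50 to -0.93 and DLA-DRA -1.72 to -1.12.

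Not run were the ratio of PSMB8 to PSMB5, since PSMB8 was not found by name, and a search of promoter motifs, since no promoter sequences were given. Tissue purity, breed and age are not in the sample labels and were not used.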
